A study of Mus musculus with 24 samples.

Results

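The 10 genes described here belong to the Notch pathway of the intestinal epithelium and to the group of transcription factors that direct epithelial cells to a secretory fate. They were chosen by name, as every probe set that the array annotation gives to Notch1, Notch2, Dll1, Dll4, Jag1, Hes1, Atoh1, Spdef, Gfi1 or Klf4. This gave 16 probe sets for 10 genes, among 35066 probe sets and 15427 genes measured. Mouse RNA was hybridised to 24 Affymetrix MOE430_2 arrays, 3 in each of 8 groups. In the first experiment, AhCre Apcfl/fl mice, in which both Apc alleles are flanked by loxP sites, were compared with AhCre wild-type mice. Each of these mice received 3 injections of 80 mg/kg beta-naphthoflavone within a day, and small intestine was taken on day 3, 4 or 5 after induction. AhCre is a Cre transgene under the Cyp1a1 promoter, so that both genotypes carried the transgene and received the inducer. In the second experiment, polyps were compared with normal colonic mucosa. Both came from ApcMin mice, which carry a truncating germline mutation of Apc, so that the normal mucosa also carries the Min allele. For each polyp array, the colonic polyps of 1 mouse were pooled. The methods call the colonic tissues paired, yet no animal name recurs among the colonic arrays, so no pairing was used. The labels call 5 of the 6 colonic samples untreated and do not state the treatment of polyp replicate 1. The ages of the mice are not given in the sources used here.

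Notch signalling passes between neighbouring cells. A ligand of the Delta-like or Jagged family on one cell binds a Notch receptor on the next, the receptor is cut by ADAM proteases and then by gamma-secretase, and its released intracellular domain joins the DNA-binding protein Rbpj and Mastermind proteins to switch on target genes such as Hes1. In intestinal crypts, Hes1 represses Atoh1. Cells that receive the signal tend to become absorptive, whereas cells that express Atoh1 and the Delta-like ligands become goblet, Paneth or enteroendocrine cells. Spdef acts downstream of Atoh1 in goblet and Paneth cells, Gfi1 keeps goblet and Paneth precursors from taking an endocrine fate, and Klf4 acts in the terminal differentiation of colonic goblet cells.

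Values are given as scaled signals, which are linear signals recovered from the deposited scores and set so that the geometric mean of every array is 100. Differences are on the scale of log2(scaled signal + 16), which understates the change of dim genes, and are given with their standard error (SE). Each gene is represented by its brightest probe set unless another is named. An adjusted p, from limma with Benjamini-Hochberg adjustment over all 35066 probe sets, is past the threshold when under 0.05, and "rose" and "fell" are used only of such differences. Markers chosen to tell small intestine from colon went with those labels. The enterocyte gene Fabp1 had mean scaled signals of 8157 in wild-type and 6900 in Apcfl/fl small intestine and of 25.4 in normal colon. Mean levels of the colonocyte genes Car1 and Aqp8 were 48.7 and 68.3 in wild-type small intestine and 1998 and 2771 in normal colon. These markers do not test the labels of mucosa and polyp. The 5 smooth muscle genes summed to 10830 to 14150 in normal colon, above every other group. The wild-type arrays of day 4 stood apart in the Paneth cell gene Pla2g2a. They gave 4801 to 6742, against 171 to 489 in wild-type mice of days 3 and 5. For the 10 genes, calls over the mean of days are also given without day 4. For all other genes, values over the mean of days include day 4 and are not given without it. Arrays of a group correlated with each other at 0.923 to 0.976. The ratio of 3' to 5' Gapdh probe sets, a sign of RNA quality, was 0.771 to 0.796 in polyps and 0.806 to 1.15 in normal colon, and its part in the results was not tested. The median difference over all genes lay between -0.10 and 0.04 in every comparison.

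Whether the genes differ between adenomas and normal colon was asked first. In ApcMin polyps, Atoh1, Klf4, Spdef and Gfi1, the secretory fate factors among the 10 genes, were lower than in normal colonic mucosa. Atoh1 fell 6.87-fold and Klf4 6.07-fold by the ratio of mean scaled signals, Spdef fell 3.05-fold and the ligand gene Dll1 2.57-fold. Gfi1 fell too, to a mean of 30.1, a dim level at which no fold is given. Hes1 differed by 0.00 ± 0.21 (SE), and Notch2 rose, a call that some other settings lost while others added one for Notch1. In all, 1 gene of 10 rose and 5 of 10 fell, whereas 7.45% of all genes rose and 9.11% fell (16.6% together).

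Because Atoh1, Klf4 and Dll1 fell together in polyps and each has a searched motif in a promoter window, these windows are shown. Spdef and Gfi1 fell as well, but no searched motif occurred in their windows, nor in the other Dll1 window. Whether a match goes with the fall was not tested. They are from RefSeq (GRCm38.p6), run 5′ to 3′ on the strand of the gene and span its start site, and the capitals mark motif matches. The Atoh1 window lies at chr6:64728875-64729174 on the plus strand, the Klf4 window at chr4:55532426-55532725 on the minus strand and the Dll1 window at chr17:15376883-15377182 on the minus strand.
Atoh1: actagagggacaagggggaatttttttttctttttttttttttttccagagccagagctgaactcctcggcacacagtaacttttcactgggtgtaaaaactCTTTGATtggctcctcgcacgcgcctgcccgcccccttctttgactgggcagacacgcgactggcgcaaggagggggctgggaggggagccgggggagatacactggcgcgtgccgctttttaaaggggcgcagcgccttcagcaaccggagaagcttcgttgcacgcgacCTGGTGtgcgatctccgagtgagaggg
Klf4: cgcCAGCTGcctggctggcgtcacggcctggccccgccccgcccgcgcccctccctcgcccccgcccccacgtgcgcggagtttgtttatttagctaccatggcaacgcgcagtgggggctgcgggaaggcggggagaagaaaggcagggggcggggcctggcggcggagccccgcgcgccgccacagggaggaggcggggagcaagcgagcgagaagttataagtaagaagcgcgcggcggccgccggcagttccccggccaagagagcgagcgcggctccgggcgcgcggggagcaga
Dll1: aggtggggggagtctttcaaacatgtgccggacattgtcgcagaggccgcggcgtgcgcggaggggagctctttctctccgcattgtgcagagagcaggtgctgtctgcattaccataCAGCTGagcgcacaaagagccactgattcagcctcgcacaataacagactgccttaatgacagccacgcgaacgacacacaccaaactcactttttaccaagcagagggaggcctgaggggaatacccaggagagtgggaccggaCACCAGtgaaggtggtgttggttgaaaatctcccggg

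On both strands of these windows, 7 motifs were searched. TTCCCAC and TTCTCAC are forms of the Rbpj site, CACNAG is the N box bound by Hes proteins, CAGCTG and CAGATG are E boxes of the kind bound by Atoh1 and other bHLH factors, and CTTTGAT and CTTTGAA are forms of the Tcf/Lef site, through which Wnt signalling acts. The N box can overlap its own reverse complement, as it does once in Notch1. RefSeq windows were matched for 9 of the 10 genes, 11 windows in all, with a pair each for Gfi1 and Dll1. In the Atoh1 window, the Tcf/Lef match begins at position -148 from the start site and an N box match at position 24. CTTTGAT occurred in 1 of the 11 windows and in 3.73% of 32851 mouse windows. The E box CAGCTG lies at -247 in Klf4, -132 in Dll1 and -82 in Jag1, thus in 3 of 11 windows against 16.3% of all. An N box occurred in 5 windows, those of Notch1, Notch2, Dll4, Atoh1 and Dll1, and in 42.48% of all. Both Rbpj forms (6.38% and 4.59% of all), CAGATG (17.15%) and CTTTGAA (5.14%) had 0 matches in the 11 windows. These matches are letters in a window and were not tested as binding sites.

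Atoh1, the bHLH factor required for goblet, Paneth and enteroendocrine cells, had scaled signals of 130, 144 and 206 on the polyp arrays and of 943, 1108 and 1249 on the normal colon arrays. The groups did not overlap, and the highest polyp array lay far below the lowest normal array. The difference was -2.68 ± 0.24 (adjusted p = 0.000131, n = 3 and 3, limma). Klf4, a zinc-finger factor of differentiated surface cells and goblet cells, gave 554, 637 and 1021 in polyps and 4008, 4290 and 5137 in normal colon. It also separated the groups completely, by -2.62 ± 0.27 (adjusted p = 0.000246). Its second probe set gave -3.05 ± 0.29 (adjusted p = 0.000169).

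Spdef, the ETS factor of goblet and Paneth cell maturation, gave 102, 103 and 127 in polyps and 293, 343 and 376 in normal colon. The difference was -1.48 ± 0.22 (adjusted p = 0.0019), without overlap. Gfi1, a zinc-finger repressor, was the dimmest of the 10 genes. Its scaled signals were 21.7, 32.7 and 35.8 in polyps and 64.4, 99.98 and 153 in normal colon, with the wider spread in normal colon. The groups did not overlap and the difference was -1.35 ± 0.29 (adjusted p = 0.0137). Without polyp replicate 2 it was -1.21, with an adjusted p of 0.051.

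Among the ligand genes, Dll1 is made by secretory precursors. It gave 123, 133 and 166 in polyps and 311, 372 and 403 in normal colon, a difference of -1.27 ± 0.23 (adjusted p = 0.00474) without overlap. Dll4, the second Delta-like ligand of the crypt and a ligand of endothelial tip cells, differed by 0.30 ± 0.23 (adjusted p = 0.416). Its other probe set gave 112, 139 and 193 in polyps and 70.3, 88.0 and 89.5 in normal colon, 0.71 ± 0.25, which did not pass the test (adjusted p = 0.0846). Jag1, a ligand of the Jagged family, differed by -0.08 ± 0.24 (adjusted p = 0.861) with overlapping groups, and both of its other probe sets also lay within 0.12 of 0.

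The receptor gene Notch2 gave 276, 306 and 348 in polyps and 163, 164 and 191 in normal colon. It rose by 0.79 ± 0.21 (adjusted p = 0.0352) without overlap, but its adjusted p was 0.0601 to 0.121 when any 1 of the 6 arrays was left out. With an offset of 1, its adjusted p was 0.0582, and with its probe sets averaged 0.16. Its second, dimmer probe set differed by 0.21 ± 0.34 (adjusted p = 0.734). Notch1, the other receptor of crypt cells, gave 318, 348 and 389 in polyps and 190.3, 204 and 255 in normal colon. The groups did not overlap on either of its probe sets, yet the differences of 0.67 ± 0.22 and 0.66 ± 0.26 did not pass the test (adjusted p = 0.0722 and 0.119). On the brightest probe set, Notch1 did pass under 5 of 9 other settings (adjusted p = 0.013 to 0.0456), so that its call depends on the setting.

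Hes1, the bHLH repressor that Notch induces, was measured by 1 probe set. Its levels were 447, 449 and 529 in polyps and 457, 466 and 494 in normal colon. The difference of 0.00 ± 0.21 had a 95% confidence interval of -0.46 to 0.47 (adjusted p = 0.992). With 3 arrays a group, changes within that interval cannot be told from 0, and larger ones may also miss the threshold of the adjusted p. Of the 10 genes, it had the difference nearest to 0.

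**Figure D1:**
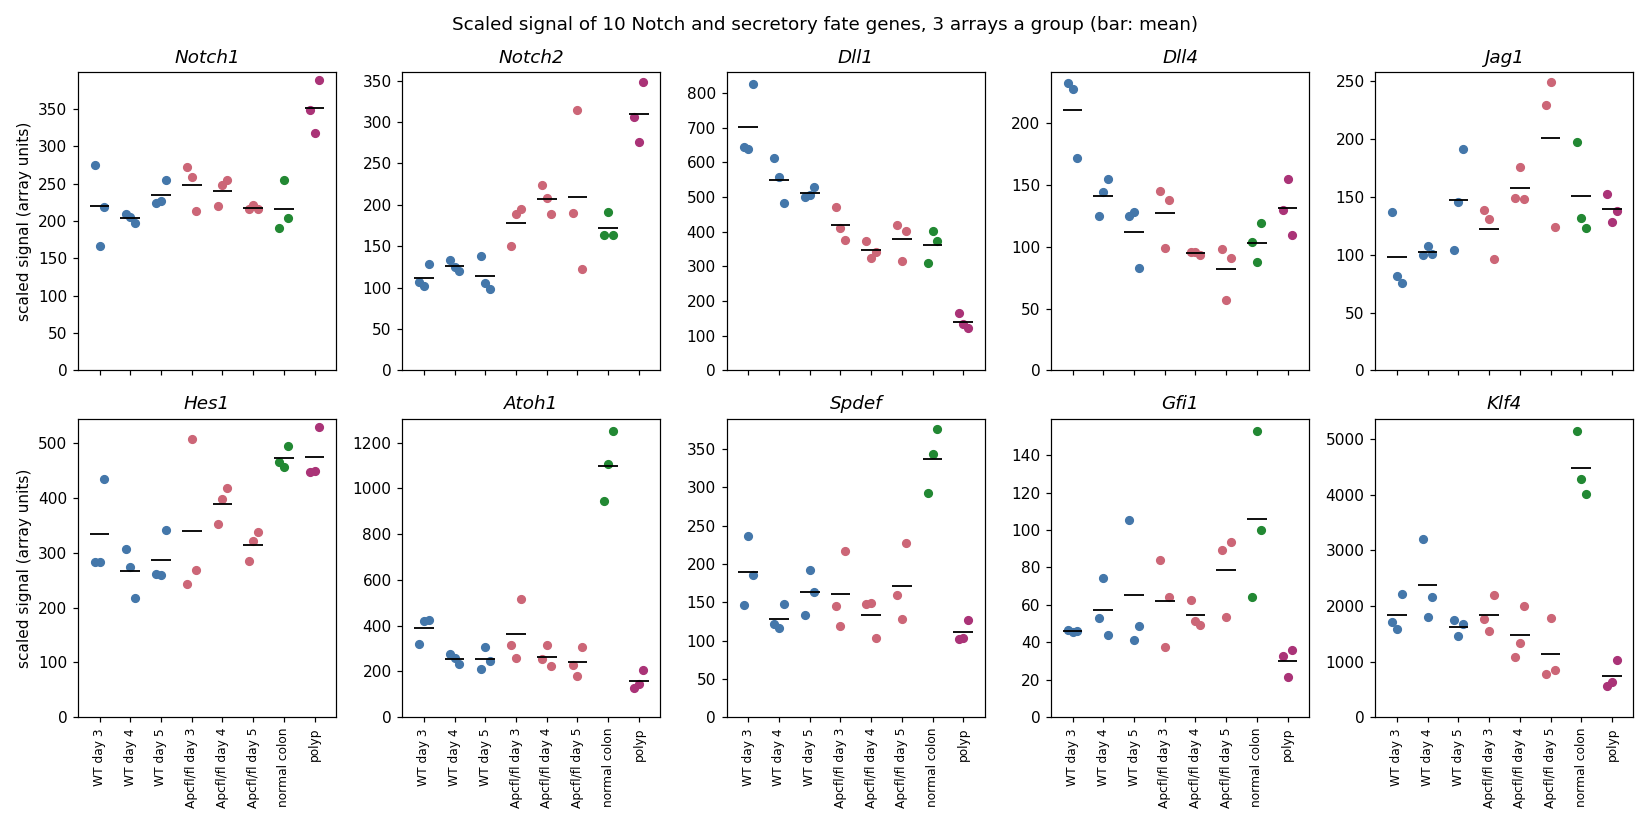
Scaled signal (linear, geometric mean of each array 100) of the representative probe set of each gene on all 24 arrays. Points are arrays, bars are group means of 3 arrays. Atoh1, Klf4 and Spdef are highest on the normal colon arrays, Gfi1 is highest there by its mean though its arrays overlap with small intestinal ones, all 4 are lower in polyps than in normal colon, Dll1 is lower in Apcfl/fl than in wild-type small intestine on each day, and Hes1 overlaps between polyps and normal colon.

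Other genes of the pathway were counted from lists, each gene by its brightest probe set. Of the 4 further receptor and ligand genes (Notch3, Notch4, Dll3 and Jag2), 0 passed limma's test in polyps. At an unadjusted p under 0.05, 1 of them passed, Notch3 (-0.69 ± 0.24, adjusted p = 0.0788). Of 23 measured genes of receptor processing, ligand trafficking and the transcription complex, 2 rose, 2 fell and 19 did not pass, with a median difference of -0.01 against -0.02 over all genes. Over all genes, 7.45% rose and 9.11% fell. Neurl1a, a ubiquitin ligase that acts on Notch ligands, rose by 1.86 ± 0.22 (adjusted p = 5e-04), and Dtx4, a Deltex protein, by 1.18 ± 0.25 (adjusted p = 0.0113). Aph1a, a gamma-secretase subunit, differed by -0.92 ± 0.26 (adjusted p = 0.0423) and Dtx1 by -0.82 ± 0.22 (adjusted p = 0.0335). Among 6 Notch target genes other than Hes1, Hey1, a bHLH repressor of the Hey family, rose by 2.27 ± 0.21 (adjusted p = 0.000134), from a mean scaled signal of 15.4 to 135.5. The other 5 did not pass. Among them, Hes5, Hey2 and Olfm4 were dim in both groups, so that a change could be missed. Their means were 27.5, 28.5 and 44.0 in polyps and 16.4, 19.85 and 36.5 in normal colon.

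Of 13 further secretory and endocrine fate factors, 1 rose and 3 fell in polyps, against 7.45% and 9.11% of all genes, with a median of -0.62. Creb3l1, a transcription factor of the secretory apparatus, fell by 2.15 on the log2 scale (adjusted p = 0.000368). Bhlha15, also called Mist1, which acts in the maturation of secretory cells, differed by -1.003 ± 0.23 (adjusted p = 0.0158), and the endocrine factor Nkx2-2 by -0.92 ± 0.26 (adjusted p = 0.0381). Hes6, a Hes family member that counteracts Hes1, rose by 1.73 ± 0.27 (adjusted p = 0.00264). Sox9 and Neurog3 differed by 0.60 ± 0.26 and -1.20 ± 0.39 and did not pass (adjusted p = 0.154 and 0.0685).

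The products of the secretory cells were set beside their factors. Of 8 goblet cell genes, 7 fell and 0 rose, against 9.11% and 7.45% of all genes, with a median of -2.02. They include Retnlb (-5.05 ± 0.35), Clca1 (-4.20 ± 0.42), Fcgbp (-3.04 ± 0.32) and Agr2 (-2.13 ± 0.28). Their summed level was 11540 to 20260 in polyps and 52580 to 79820 in normal colon. Of 10 enteroendocrine genes, 4 fell, Gcg (-3.67 ± 0.26), Chgb (-3.18 ± 0.23), Chga (-1.91 ± 0.25) and Sst (-1.50 ± 0.41). Gip, Sct and Cck were dim in both groups, at means of 5.5, 16.6 and 23.6 in polyps. In normal colon their means were 5.0, 21.3 and 16.8, so that a fall could be missed. Of 5 Paneth cell genes, 3 rose, Mmp7 (4.63 ± 0.25), Pla2g2a (4.40 ± 0.37) and Itln1 (3.37 ± 0.51), and Ang4 fell (-1.68 ± 0.32). Ang4 had its highest group mean in normal colon, at 8997, with means of 5978 or less in the small intestinal groups. Which cells gave this signal was not tested. Of 5 tuft cell genes, 1 rose, Avil (3.07 ± 0.32).

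Markers of other cells also moved, while 7.45% of all genes rose and 9.11% fell. All 5 colonocyte genes fell in polyps, with a median of -4.76, and their summed level was 445 to 1153 against 15850 to 21120. All 5 smooth muscle genes fell as well, with a median of -4.54, a summed level of 1528 to 3604 in polyps against 10830 to 14150, and the defining gene Des at a mean of 12.9 against 858. Of 9 endothelial genes, 2 rose, and of 6 crypt-base stem cell genes, 5 rose, among them Axin2 (2.28 ± 0.29) and Lgr5 (1.96 ± 0.28). Of 7 myeloid genes, 4 rose, with a median of 1.07 and a summed level of 8096 to 13230 against 3104 to 4101. Among them, S100a8 and S100a9 of neutrophils had means of 3167 and 3078 in polyps and of 47.4 and 24.0 in normal colon. Of 6 fibroblast genes, 2 rose and 1 fell. Of 8 enterocyte genes, 3 fell, and of 7 lymphocyte genes, 2 fell. Among the enterocyte genes, Fabp1, Apoa1, Apoa4 and Lct were dim in both groups, so that a fall could be missed. Their means were 39.5, 8.0, 12.1 and 33.6 in polyps and 25.4, 25.3, 9.95 and 26.15 in normal colon. The part of these cell types in the differences of the 10 genes was not tested. In bulk tissue, fewer cells of a type and less RNA per cell cannot be told apart.

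**Figure D2:**
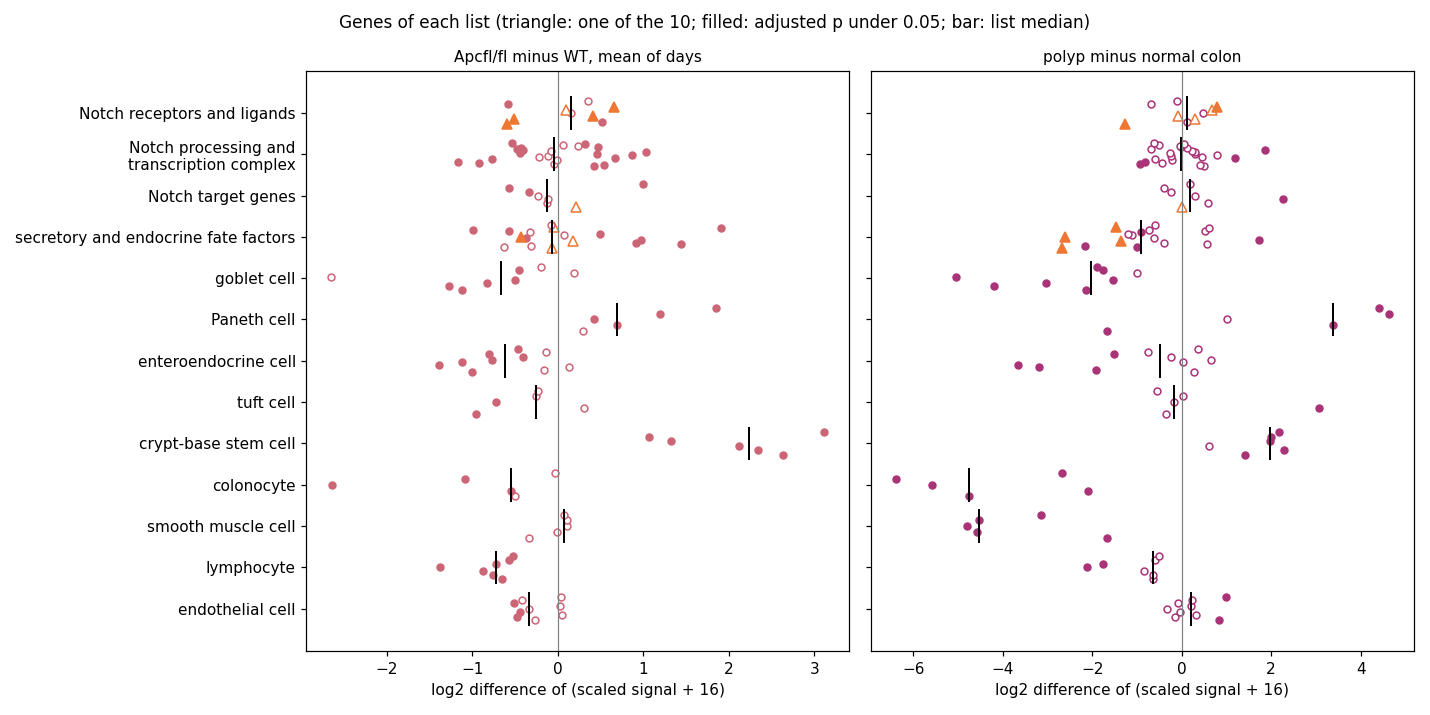
Log2 difference of each measured gene, by list, for the mean of days after Apc deletion (left) and for polyps against normal colon (right, wider axis). Filled symbols passed the test, triangles are among the 10 genes and bars are list medians. In polyps, the goblet cell median is -2.02 and the 4 fate factors among the 10 genes lie between -2.68 and -1.35, while in the left panel the same 4 lie between -0.43 and 0.18.

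The label of normal colon replicate 1 carries another prefix than those of the other 5 colonic arrays. Without this array, Atoh1, Klf4, Spdef, Gfi1 and Dll1 differed by -2.78, -2.515, -1.57, -1.62 and -1.37, with adjusted p values between 0.000408 and 0.00773. The label codes start with TH for each polyp array and AC for each normal one, and what these codes mark cannot be told apart from the tissue.

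The second question was whether the genes change within days of Apc deletion in the small intestine. Over the mean of days 3, 4 and 5, the ligand genes Dll1 and Dll4 fell, by 1.54-fold and 1.52-fold in mean scaled signal, and Klf4 fell 1.32-fold. Notch2 and Jag1 rose on their brightest probe sets, though other probe sets of both fell. Atoh1, Spdef, Gfi1, Hes1 and Notch1 did not pass the test. Thus 2 genes of 10 rose and 3 fell, near the shares of all genes, of which 29.2% rose and 24.5% fell (53.7% together). The ratio of 3' to 5' Gapdh probe sets overlapped between the genotypes on day 3, but was 0.797 to 0.827 in Apcfl/fl against 0.745 to 0.763 in wild-type mice on day 4 and 0.831 to 0.963 against 0.776 to 0.803 on day 5, and its part in the results was not tested.

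Dll1 gave 637, 645 and 825 in wild-type mice on day 3, 482, 557 and 611 on day 4 and 498, 507 and 529.8 on day 5. In Apcfl/fl mice it gave 375, 411 and 472 on day 3, 324, 342 and 373 on day 4 and 314, 401 and 419.6 on day 5. Every Apcfl/fl array lay below every wild-type array. The difference over the mean of days was -0.60 ± 0.11 (adjusted p = 0.000197). By day it was -0.72 ± 0.19 (adjusted p = 0.0136), -0.64 ± 0.19 (adjusted p = 0.0214) and -0.43 ± 0.19 (adjusted p = 0.0899). The day 3 call was lost without Apcfl/fl replicate 3 of that day (adjusted p = 0.0549). The day 4 call was lost without Apcfl/fl replicate 2 or 3 or wild-type replicate 1 or 2 of that day (adjusted p = 0.0601 to 0.0793).

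Dll4 gave 172, 227 and 233 in wild-type and 99.3, 137 and 145 in Apcfl/fl mice on day 3, without overlap, a difference of -0.67 ± 0.22 (adjusted p = 0.0453). That call was lost in 12 of 18 fits that left out 1 array. On day 4 the genotypes did not overlap (-0.50 ± 0.22, adjusted p = 0.113), and on day 5 they did (-0.39 ± 0.22, adjusted p = 0.196). The mean of days was -0.52 ± 0.13 (adjusted p = 0.00265), whereas the second Dll4 probe set gave 0.15 ± 0.13 (adjusted p = 0.359). The endothelial genes, cells in which Dll4 is also made, summed to 768 to 1152 in wild-type and to 668 to 974 in Apcfl/fl mice. Over the mean of days, 3 of these 9 genes fell and 0 rose, while 24.5% of all genes fell and 29.2% rose. The part of these cells in the Dll4 value was not tested.

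Notch2 gave 98.8 to 138 in the wild-type arrays and 123 to 315 in the Apcfl/fl arrays, with no overlap on days 3 and 4. It rose by 0.65 ± 0.14 over the mean of days (adjusted p = 0.00102). On day 5, it also passed (0.71 ± 0.25, adjusted p = 0.0362), although the groups overlapped, at 123, 191 and 315 against 98.8, 106 and 138. Without Apcfl/fl replicate 2 of day 5, the array at 315, the day 5 difference was 0.39 (adjusted p = 0.205). Without Apcfl/fl replicate 1 or wild-type replicate 2 or 3 of that day, its adjusted p was 0.0682 to 0.115. With quantile normalization, the authors' scores, other arrays in the fit or probe sets averaged, the day 5 call was also lost (adjusted p = 0.062 to 0.38). The dimmer Notch2 probe set moved the other way over the mean of days, by -0.41 ± 0.15 (adjusted p = 0.0322). Jag1 likewise gave 0.41 ± 0.15 on its brightest probe set (adjusted p = 0.0321), -0.28 ± 0.11 on another (adjusted p = 0.0498) and 0.10 ± 0.22 on the dimmest (adjusted p = 0.712). The call for Jag1 was lost in 8 of 18 fits without 1 array (adjusted p = 0.0743 at most) and under 4 of 9 other settings. Notch1 differed by 0.10 ± 0.11 (adjusted p = 0.465).

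**Figure D3:**
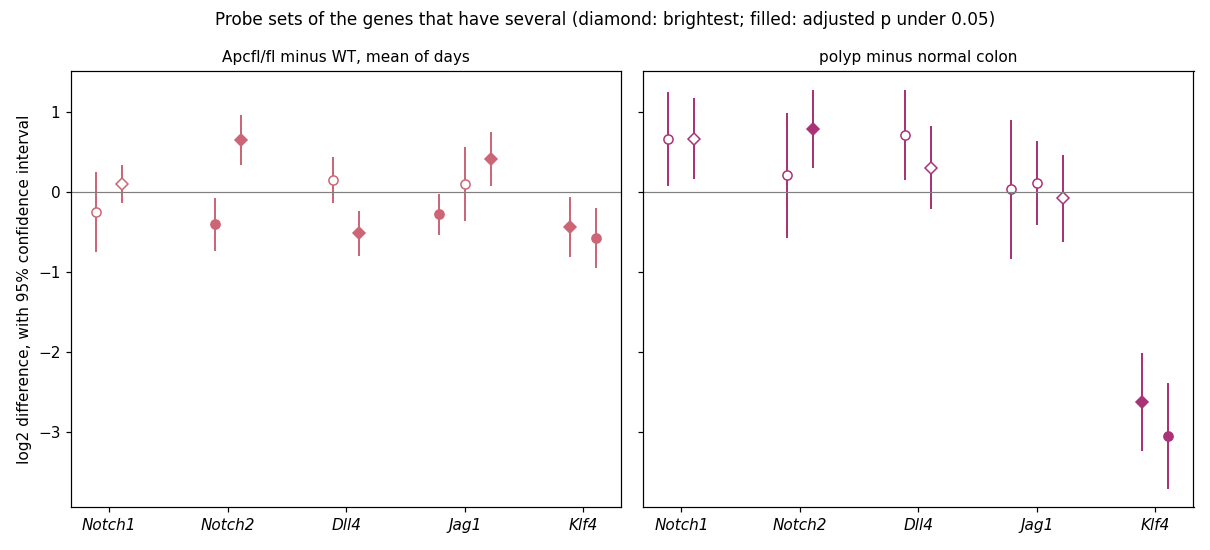
Log2 difference with 95% confidence interval for every probe set of the 5 genes that have several, for the mean of days after Apc deletion (left) and polyps against normal colon (right). Diamonds are the brightest probe sets and filled symbols passed the test. After Apc deletion, probe sets of Notch2 (0.65 and -0.41) and Jag1 (0.41 and -0.28) passed in opposite directions, and both Klf4 probe sets fell in each panel.

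Atoh1 ranged from 212 to 425 in wild-type and from 181 to 518 in Apcfl/fl small intestine and overlapped on every day. Its difference was -0.07 ± 0.15 with a 95% confidence interval of -0.37 to 0.24 (adjusted p = 0.726). Spdef ranged from 117 to 237 and from 104 to 228, a difference of -0.05 ± 0.15 (interval -0.35 to 0.26, adjusted p = 0.799). Gfi1 ranged from 41.4 to 105 and from 37.6 to 93.7, a difference of 0.18 ± 0.16 (interval -0.17 to 0.52, adjusted p = 0.388). The lower bounds of these 3 intervals all lie above the differences measured in polyps. Hes1 differed by 0.21 ± 0.14 (interval -0.09 to 0.52, adjusted p = 0.23). It did not overlap on day 4, at 352, 398 and 419 in Apcfl/fl against 217, 274 and 307 in wild-type mice (0.53 ± 0.25, adjusted p = 0.133), and overlapped on days 3 and 5.

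Klf4 was the one fate factor of the 10 genes to fall after Apc deletion. The difference was -0.43 ± 0.17 over the mean of days (adjusted p = 0.0447), and -0.57 ± 0.17 for its second probe set (adjusted p = 0.0109). On day 3 its mean scaled signal was 1835 ± 333 (SD, n = 3) in Apcfl/fl and 1836 ± 330.8 in wild-type mice. On day 4 the means were 1478 ± 473 and 2385 ± 731, and on day 5 1135 ± 559 and 1628 ± 146, with overlap on each day. The call over the mean of days was lost in 12 of 18 fits without 1 array (adjusted p up to 0.0997) and under 3 of 9 other settings. The animal names of the wild-type mice of day 4 begin with Ras, a prefix that no other label carries and whose meaning is not given. Without day 4, 3 of the 10 genes passed, Notch2, Dll1 and Dll4, while Klf4 differed by -0.31 (adjusted p = 0.268) and Jag1 by 0.35 (adjusted p = 0.229).

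By day, 2 of the 10 genes passed on day 3, Dll1 and Dll4, 1 on day 4, Dll1, and 1 on day 5, Notch2. Of all genes, 10.8% rose and 7.35% fell on day 3 (18.2% together), 14.9% and 9.86% on day 4 (24.7%) and 20.5% and 12.9% on day 5 (33.4%), and counts of 1 or 2 in 10 are near or below these shares. The change of the Apc effect from day 3 to day 5 passed in 0 of 10 genes in limma and in 0.791% of all genes (0.609% higher and 0.181% lower). At an unadjusted p under 0.05, 0 of the 10 genes passed, and 0 passed under each of the other settings tried. It was largest for Klf4 (-0.61 ± 0.42, adjusted p = 0.507), for which the interval reached from -1.50 to 0.28.

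**Figure D4:**
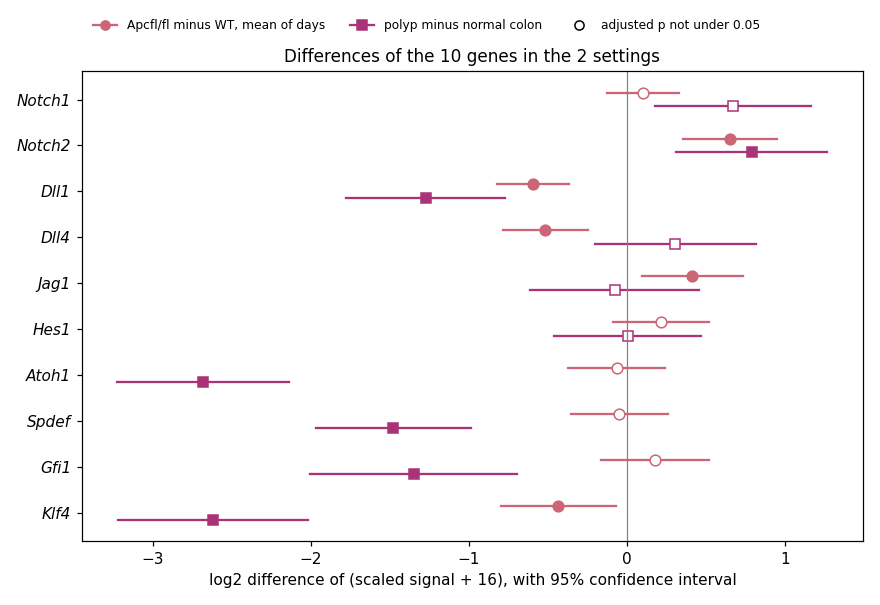
Log2 difference with 95% confidence interval of each gene for the mean of days after Apc deletion (circles, 9 against 9 arrays) and for polyps against normal colon (squares, 3 against 3 arrays). Filled symbols passed the test. Atoh1, Spdef and Gfi1 are near 0 after Apc deletion and between -2.68 and -1.35 in polyps, and Hes1 includes 0 in both.

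Other genes of the pathway differed in both directions after Apc deletion, as did 29.2% (higher) and 24.5% (lower) of all genes over the mean of days. Of 23 processing and transcription complex genes, 8 rose, 8 fell and 7 did not pass, with a median of -0.05 against 0.01 over all genes. Mib1, the ubiquitin ligase that makes ligands active, rose by 1.04 ± 0.17 (adjusted p = 7e-05) over the mean of days. Lfng, a glycosyltransferase that modifies Notch receptors, rose on day 3 (1.93 ± 0.48, adjusted p = 0.0108), but gave 1.36 ± 0.48 on day 4 (adjusted p = 0.0506) and -0.67 ± 0.48 on day 5 (adjusted p = 0.307), with a mean of days of 0.87 ± 0.28 (adjusted p = 0.0144). Dtx1 differed by -1.17 ± 0.13 (adjusted p = 2.42e-06), and Aph1b, a gamma-secretase subunit, by -0.92 ± 0.13 (adjusted p = 1.43e-05). Of the 4 further receptor and ligand genes, Notch3 fell (-0.58 ± 0.13, adjusted p = 0.00116) and Dll3 rose (0.52 ± 0.17, adjusted p = 0.0191), the latter at mean scaled signals of 38.1 and 58.4. Of the 6 target genes other than Hes1, Olfm4, also a marker of crypt-base stem cells, rose by 1.00 ± 0.11 (adjusted p = 1.82e-06). Nrarp, a feedback inhibitor of Notch, fell (-0.57 ± 0.12, adjusted p = 0.000956), as did Heyl (-0.33 ± 0.13, adjusted p = 0.0397).

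Of the 13 further fate factors, 5 rose and 3 fell, against 29.2% and 24.5% of all genes. The largest differences were those of Sox9 (1.91 ± 0.14), which is needed for Paneth cells, Foxa1 (1.44 ± 0.15), Pou2f3 (-0.99 ± 0.17), which specifies tuft cells, and Hes6 (0.97 ± 0.15). Among products, 5 of 8 goblet cell genes fell and 0 rose, with a median of -0.67, including Clca1 (-1.27 ± 0.28), Agr2 (-1.12 ± 0.18), Fcgbp (-0.83 ± 0.15) and Muc2 (-0.51 ± 0.12). By day, 0, 1 and 5 of the 8 fell on days 3, 4 and 5, against 7.35%, 9.86% and 12.9% of all genes. The change from day 3 to day 5 was itself past the threshold, and negative, for 2 of 8, against 0.181% of all genes. Of 10 enteroendocrine genes, 7 fell, including Gcg (-1.39 ± 0.18), Gip (-1.12 ± 0.20), Cck (-1.002 ± 0.15) and Sst (-0.81 ± 0.17). Over the mean of days, 4 of 5 Paneth cell genes rose, Pla2g2a (1.85 ± 0.19), Mmp7 (1.19 ± 0.18), Itln1 (0.70 ± 0.20) and Lyz1 (0.42 ± 0.13). By day, 1, 0 and 5 of the 5 rose on days 3, 4 and 5, with medians of 0.345, -0.05 and 1.68. Among all genes, 10.8%, 14.9% and 20.5% rose on these days. For Pla2g2a the mean covers differences of 1.85 and 4.19 on days 3 and 5 and of -0.48 on day 4 (adjusted p = 0.306), when the wild-type arrays were high. Of 5 tuft cell genes, Alox5 (-0.96 ± 0.26) and Dclk1 (-0.73 ± 0.24) fell.

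All 6 crypt-base stem cell genes rose, with summed levels of 3792 to 6672 in Apcfl/fl against 1097 to 1663 in wild-type mice. All 7 lymphocyte genes fell over the mean of days, with summed levels of 603 to 1841 against 1325 to 2992. By day, 0, 0 and 6 of the 7 fell on days 3, 4 and 5 in limma, with medians of -0.47, -0.46 and -1.36. Among all genes, 7.35%, 9.86% and 12.9% fell on these days. Also over the mean of days, 4 of 7 myeloid, 3 of 8 enterocyte, 3 of 5 colonocyte and 2 of 6 fibroblast genes fell and 0 of these rose, with medians of -0.35, -0.37, -0.55 and -0.38. Over all genes, 24.5% fell and 29.2% rose. Of 5 smooth muscle genes, 0 passed in limma, also 0 at an unadjusted p under 0.05, and their summed levels overlapped at 1091 to 7053 and 1497 to 6475. The part of these cell types in the values of the 10 genes was not tested.

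The third comparison set normal colon of ApcMin mice against wild-type small intestine, to place the levels from which the polyp values fell. It uses the same normal colon arrays as the polyp comparison, so both sets of values are given side by side and no relation is drawn between them. Organ, Apc allele, transgene, inducer and experiment differ between these groups and cannot be told apart. Atoh1 was 1.85 ± 0.20 higher in normal colon (adjusted p = 2.61e-07) and fell by 2.68 in polyps. Klf4 was 1.22 ± 0.24 higher (adjusted p = 0.000695), Spdef 1.02 ± 0.19 (adjusted p = 0.000422), Gfi1 0.73 ± 0.24 (adjusted p = 0.0314) and Hes1 0.67 ± 0.19 (adjusted p = 0.0136). Dll1 was lower in normal colon (-0.67 ± 0.15, adjusted p = 0.00257). In all, 5 of 10 genes were higher and 1 lower, against 12.2% and 11.3% of all genes (23.6% together). The Gfi1 groups overlapped, and its call was lost in 5 of 24 fits without 1 array. Without normal colon replicate 2, the brightest at 153, its difference was 0.47 (adjusted p = 0.268). The Hes1 call was lost without normal colon replicate 3 (0.64, adjusted p = 0.0639).

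Ordered by mean scaled signal over the 8 groups, Atoh1 was highest in normal colon (1100 ± 153, SD, n = 3) and lowest in polyps (160.1 ± 40.5). The small intestinal groups lay between, from 239.7 to 388, and each overlapped with its neighbour in that order, the lowest of them also with polyps. Hes1 was highest in polyps (475 ± 46.8) and normal colon (473 ± 19.2), which did not differ beyond their spread, and then ran from 389.7 ± 33.9 in Apcfl/fl mice on day 4 to 266 ± 45.6 in wild-type mice on day 4. Dll1 was ordered by genotype, with the 3 wild-type groups highest (702 ± 107, 549.9 ± 65.0 and 512 ± 16.3 on days 3, 4 and 5, the last pair overlapping). The Apcfl/fl groups and normal colon followed at 346 to 419.5, and polyps were lowest at 140.5 ± 22.5. Notch2 was highest in polyps (310.3 ± 36.0) and lowest in the wild-type groups (112 to 126).

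The last comparison asked whether the polyp effect, polyp minus normal colon, differs from the Apc deletion effect over the mean of days. It differed in 6 of 10 genes, 1 higher and 5 lower, against 7.06% and 10.9% of all genes (18.0% together). The polyp effect minus the deletion effect was -2.61 ± 0.29 for Atoh1 (adjusted p = 1.33e-06), -2.18 ± 0.34 for Klf4 (adjusted p = 0.000129), -1.52 ± 0.34 for Gfi1 (adjusted p = 0.00364), -1.43 ± 0.27 for Spdef (adjusted p = 0.00102) and -0.68 ± 0.21 for Dll1 (adjusted p = 0.0344). Dll4 went the other way (0.82 ± 0.25, adjusted p = 0.0276). Notch1 (0.57 ± 0.21, adjusted p = 0.0739), Jag1 (-0.49 ± 0.30, adjusted p = 0.27), Hes1 (-0.21 ± 0.27, adjusted p = 0.636) and Notch2 (0.14 ± 0.27, adjusted p = 0.769) did not pass. Dll1 lost the call in 6 and Dll4 in 4 of 24 fits without 1 array. Organ, time since Apc loss, Apc allele and inducer all differ between the effects and cannot be told apart.

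Over the 18 small intestinal arrays, the genes whose log2 values were most like 3 of the members were drawn from 8917 genes of sufficient level. These correlations are descriptions over arrays that share groups. For Atoh1 they were Npl (r = 0.84), Arsb (0.82), Dcaf11 (0.81), Aak1 (0.78) and Slc5a9 (0.77). For Hes1 they were Safb (0.79), Ppa2 (0.77), Nr2c2 (0.76), Ep400 (0.75) and Myrfl (0.75). For Notch1 they were Phc3 (0.73), Kmt2e (0.70), Zfp839 (0.70), Sesn3 (0.68) and Mettl7a2 (0.67). None of these genes belongs to the lists used here.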

How the data were processed

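RNA was extracted with Trizol and RNeasy, labelled with an Enzo kit and hybridised to MOE430_2 arrays, 3 per group. The labels name separate animals, but give only numbers for Apcfl/fl on day 4, whose spread may thus be technical. None of the sources used here names the software that summarised the probe sets. The authors deposited a standardised score per probe set and array. Judged from the spacing of its values, this score is the array's log signal with the mean subtracted and the SD divided out. Signals were recovered from that spacing (step 0.1, floor 1), scaled to a geometric mean of 100 and tested as log2(scaled signal + 16). The SD differs with genotype on days 4 and 5 (2.22 to 2.38 on the log2 scale against 1.96 to 2.18 in controls). Depth has no meaning for arrays, and precision is limited by their number.

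Two-sided tests used limma 3.58.1 (R 4.3.3) on 35066 probe sets, adjusted by Benjamini and Hochberg, with a threshold of 0.05. One fit held the 18 small intestinal arrays, another the 6 colonic arrays, and comparisons across tissues used all 24. The procedure was tested on simulated data. Named genes are the 10 members, up to 4 genes of each list with the largest differences past the threshold, label markers and the genes most like Hes1, Atoh1 and Notch1. Other genes named beside a list were chosen after their values were seen. The members and lists were chosen with earlier results of these data known. Alternatives were quantile normalization, median centring, offsets of 1 and 64, the authors' scores, leaving out dim probe sets, other arrays in the fit, trended robust variances, averaging a gene's probe sets and leaving out each array. Leaving out day 4 was added after seeing the data. Promoters came from RefSeq, and protein sequences were not used here.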

Additional observations from a re-analysis of the deposited data

Results flagged for a closer look

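By a test of the difference itself, the polyp effect differed from the Apc deletion effect in 6 of the 10 genes, against 18.0% of all genes. Organ, time since Apc loss, Apc allele and inducer differ between these effects and cannot be told apart. The polyp effect minus the deletion effect was -2.61 for Atoh1 (limma, adjusted p = 1.33e-06), -2.18 for Klf4 (adjusted p = 0.000129), -1.52 for Gfi1 (adjusted p = 0.00364), -1.43 for Spdef (adjusted p = 0.00102), -0.68 for Dll1 (adjusted p = 0.0344) and 0.82 for Dll4 (adjusted p = 0.0276). Dll1 fell in both settings and Klf4 as well. The Klf4 call after Apc deletion was lost in 12 of 18 fits without 1 array, and also without day 4 (-0.31, adjusted p = 0.268). Dll4 fell only on 1 of its probe sets after Apc deletion and did not pass in polyps. The smooth muscle and colonocyte genes, which fell in polyps with medians of -4.54 and -4.76, had medians of 0.07 and -0.55 after Apc deletion, and their part in these differences was not tested.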

How the results depend on the processing

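No paired analysis was possible because the groups compared share no replicate numbers in the labels. The cause of the changes below was not tested. On day 3, 2 of the 10 genes passed. The count was 1 with median centring, 1 with an offset of 1, 1 with a gene's probe sets averaged and 0 with other arrays in the fit. On day 4, 1 passed, but 2 with quantile normalization, 2 with the authors' scores, 2 with probe sets averaged and 5 with other arrays in the fit. On day 5, 1 passed, but 2 with quantile normalization, 2 with an offset of 64, 2 with the authors' scores, 0 with other arrays and 0 with probe sets averaged. Those 2 were Dll1 and Klf4 with quantile normalization and with the authors' scores, where Notch2, the day 5 call, was lost (adjusted p = 0.0849 and 0.062). Over the mean of days 5 passed, but 2 with probe sets averaged, 3 without day 4, a choice made after seeing the data, and 4 with quantile normalization, the authors' scores (both losing Jag1), median centring or an offset of 1 (both losing Klf4). In polyps, Notch1 gained the call with quantile normalization, an offset of 64, dim probe sets left out, other arrays or trended robust variances (adjusted p = 0.013 to 0.0456), and Notch2 lost it with an offset of 1 or probe sets averaged (0.0582 and 0.16). For normal colon against small intestine, Notch2 gained the call under 4 of 9 settings (adjusted p = 0.0304 to 0.0492), Dll4 under 4 (0.0266 to 0.0481), and Gfi1 lost it under 2 (0.0518 and 0.0579). For the polyp effect minus the deletion effect, Notch1 gained it under 4 of 8 (0.0108 to 0.0386) and Dll1 lost it under 1 (0.0535). Leaving out 1 array gave counts of 0 to 3 on day 3, 0 to 2 on day 4, 0 to 1 on day 5, 3 to 5 for the mean of days, 0 to 0 for the change from day 3 to day 5, 4 to 5 in polyps, 4 to 8 for normal colon against small intestine and 4 to 7 for the polyp effect minus the deletion effect. The polyp calls of Atoh1, Klf4, Spdef and Dll1 kept their direction and side of the threshold under every alternative run, with values from -2.96 to -2.38, -2.87 to -2.42, -1.70 to -1.20 and -1.43 to -1.06. Other arrays in the fit gave no value for the mean of days and for the polyp effect minus the deletion effect, whose fits already hold all arrays used.

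These values changed sign, and none was past the threshold in either direction. Day 3 gave, with median centring, 0.065 for Hes1 and 0.089 for Klf4, and with probe sets averaged -0.085 for Notch1, -0.086 for Notch2 and -0.126 for Jag1. Day 4 gave, with quantile normalization, -0.0048 for Notch1, -0.202 for Atoh1, -0.053 for Spdef and 0.077 for Gfi1, and with the authors' scores -0.087 for Atoh1 and 0.031 for Gfi1. Day 5 gave, with quantile normalization, -0.180 for Hes1 and -0.116 for Spdef, and with the authors' scores -0.062 for Hes1 and -0.037 for Spdef. The mean of days gave, with quantile normalization, -0.089 for Notch1 and -0.020 for Hes1, and -0.073 for Notch1 with probe sets averaged. The change from day 3 to day 5 gave, with quantile normalization, -0.052 for Notch2, -0.090 for Jag1, -0.046 for Hes1 and -0.069 for Atoh1, 0.0032 for Gfi1 with an offset of 1, and with the authors' scores -0.046 for Atoh1 and 0.011 for Gfi1. In polyps, Hes1 gave -0.0001 with median centring and Jag1 0.021 with probe sets averaged. Notch2 gave -0.058 in normal colon against small intestine with probe sets averaged, and Hes1 0.024 for the polyp effect minus the deletion effect with quantile normalization.

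Leaving out 1 array also turned signs, all short of the threshold. Atoh1 ranged from -0.414 to 0.069 on day 3, -0.099 to 0.144 on day 4, -0.283 to 0.077 on day 5, -0.159 to 0.0023 over the mean of days and -0.166 to 0.318 for the change from day 3 to day 5. Spdef ranged from -0.039 to 0.192 on day 4, -0.158 to 0.221 on day 5 and -0.122 to 0.0088 over the mean of days. Gfi1 ranged from -0.170 to 0.127 on day 4 and -0.253 to 0.323 for the change between days, Hes1 from -0.338 to 0.173 on day 3, -0.043 to 0.468 for that change and -0.073 to 0.045 in polyps. Jag1 ranged from -0.139 to 0.382 for the change and -0.196 to 0.113 in polyps, Klf4 from -0.138 to 0.139 on day 3, Notch2 from -0.206 to 0.421 for the change and Notch1 from -0.134 to 0.062 in normal colon against small intestine.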
